A study of Mus musculus with 8 samples.

Results

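The aminoacyl-tRNA synthetases are the enzymes that join each amino acid to its tRNA, and 36 of their genes were described here in mouse hearts that had lost the RNA-binding protein LRPPRC. The genes were chosen by name: 20 encode enzymes that work in the cytosol and 16, whose names end in 2, encode the separate set that works in mitochondria. The list rests on what the genes encode and uses no threshold on their counts. All 36 were found among the 50599 records of each library, and all 36 received an adjusted p in the fit across all genes.

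Cytosolic protein synthesis draws on one set of charged tRNAs and the mitochondrial ribosome on another, so most amino acids have 2 synthetase genes in the nucleus. Glycyl-tRNA synthetase (Gars) and lysyl-tRNA synthetase (Kars) are exceptions, since each gene supplies both compartments. Genes of the cytosolic set are well known targets of the transcription factor ATF4, which acts in the amino acid and integrated stress responses. The mitochondrial set is needed in heart for the synthesis of the respiratory chain subunits encoded by mitochondrial DNA.

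Total RNA from whole hearts was sequenced from 4 Lrpprc knockout mice and 4 controls that the labels call wildtype, 1 library per animal, to ask what follows from the loss of LRPPRC, a protein that stabilises mitochondrial mRNAs. All animals were males of the C57BL/6N strain aged 12 weeks and carried Lrpprc loxP/loxP, and the knockout mice also carried Cre. The deletion was specific to heart and skeletal muscle, the promoter driving Cre is not given in the sources used here, and the controls carried no Cre. In whole hearts, which also hold cells that are not muscle cells, fewer cells of a type and less RNA per cell cannot be told apart.

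Lrpprc itself (chromosome 17: 84705247-84790789, minus strand) had normalised counts of 3607, 3946, 3424 and 3682 in the wildtype libraries and 597, 504, 605 and 601 in the knockout libraries. Its log2 fold change was -2.67 ± 0.10 (SE, adjusted p = 3.77e-153, DESeq2, n = 4 per group). Libraries held 35218541 to 47743376 expected counts, of which mitochondrial rRNA took 44.0 to 46.9% in wildtype and 65.6 to 67.8% in knockout. Summed counts of 8 cardiomyocyte markers ran from 1063000 to 1173000 in wildtype and from 559100 to 712200 in knockout, with 1 marker higher and 6 lower. Of 8 markers each, 4 fibroblast and 6 macrophage genes were higher, with no lower ones, and no endothelial gene was called. Over all genes tested, 18.2% were higher and 15.5% lower. The groups overlapped for Col1a1 and Col3a1 among these fibroblast genes and for Csf1r, Fcgr1, Mrc1, C1qa and C1qb among the macrophage genes. Mrc1 and C1qa did not pass the edgeR quasi-likelihood test. The fibroblast sums ran from 18250 to 19010 against 19210 to 64280, and the macrophage sums from 4206 to 5780 against 4231 to 10830. Knockout replicate 3 stood apart on the second principal component (25.3, against -12.6 to -5.66 for the other knockout libraries). The summed counts of 4 atrial markers ran from 9980 to 12040 in wildtype and from 1268 to 6012 in knockout, with 2 markers lower, and replicate 3 held the lowest sum. Replicate 3 also held the lowest knockout sums of the fibroblast, macrophage and endothelial markers (19210, 4231 and 12340) and the highest of the cardiomyocyte markers (712200). The part of these differences in the results below was not tested.

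Of the 20 cytosolic genes, 17 rose in the knockout hearts, 0 fell, and Farsa, Kars and Qars did not pass the test. Of the 16 mitochondrial genes, 1 rose (Rars2), 1 fell (Cars2), and 14 did not pass the test. Among 19959 genes tested 33.7% were called at an adjusted p under 0.05, 18.2% higher and 15.5% lower, so the cytosolic share of 85.0% higher lay above the background, while 6.25% of the mitochondrial genes were higher. A rise of at least 2-fold was called for 13 cytosolic genes and 0 mitochondrial genes, against 6.86% of all genes tested. The median log2 fold change was 1.54 over the cytosolic genes, or 2.91-fold, and -0.09 over the mitochondrial genes, beside 0.005 over all genes tested. The edgeR quasi-likelihood test gave the same counts, 17 higher and 0 lower in the cytosolic set and 1 higher and 1 lower in the mitochondrial set.

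**Figure D1:**
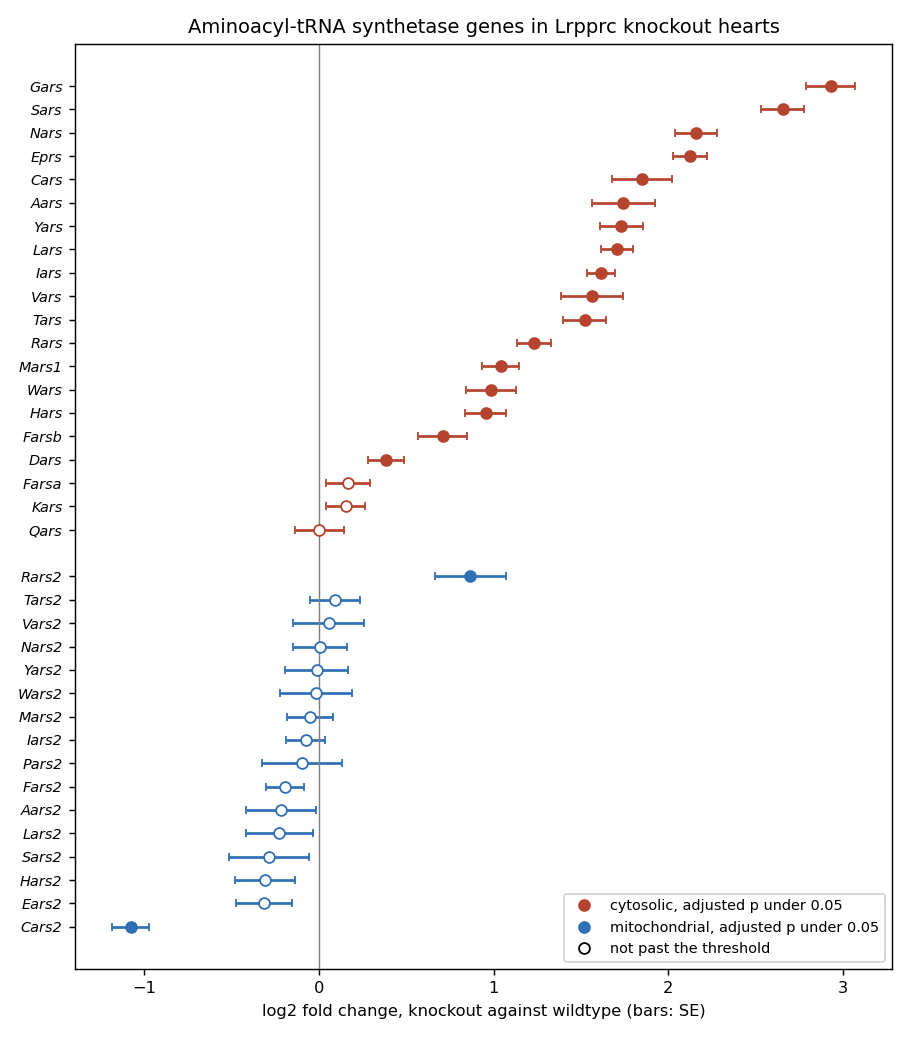
Log2 fold change of each synthetase gene in knockout against wildtype hearts with its SE (n = 4 per group), cytosolic genes in red and mitochondrial genes in blue, filled where the DESeq2 adjusted p was under 0.05. Cytosolic genes reached 2.93 (Gars), while the mitochondrial genes other than Cars2 and Rars2 lay between -0.31 and 0.09.

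Cars2 and Rars2 kept their direction and call under the other scalings tried, but the number of mitochondrial genes called depended on how libraries were scaled. The median gene with a mean count of at least 10 moved by 0.02 (log2) under the size factors used here, by -0.28 when libraries were scaled to their total counts, and by 0.44 when mitochondrial rRNA was left out of that total. With total counts, 16 cytosolic genes were called higher and 1 lower (Qars), and 1 mitochondrial gene higher (Rars2) and 9 lower (Cars2, Aars2, Ears2, Fars2, Hars2, Iars2, Lars2, Mars2 and Sars2). With totals that left out mitochondrial rRNA, all 20 cytosolic genes were called higher, and 7 mitochondrial genes were called higher (Rars2, Fars2, Iars2, Mars2, Nars2, Tars2 and Vars2) and 1 lower (Cars2). Fars2 (-0.49 and 0.23), Iars2 (-0.38 and 0.34) and Mars2 (-0.35 and 0.37) thus passed the test in opposite directions under these 2 scalings. Over all genes tested the calls split into 3628 higher and 3100 lower under the size factors used here, 1924 and 5912 with total counts, and 7950 and 1111 without mitochondrial rRNA. Taken relative to the median gene, the cytosolic median was 1.52 under each of these scalings and the mitochondrial median was -0.10 or -0.11, and 19 of 20 cytosolic against 3 of 16 mitochondrial genes lay above the median gene under each.

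The largest rise among the 36 genes was that of Gars (chromosome 6: 55038007-55079500, plus strand), which charges glycine in cytosol and mitochondria from one gene. Its normalised counts were 956, 893, 890 and 942 in wildtype and 6312, 6151, 9036 and 6544 in knockout hearts. All knockout libraries lay far above all wildtype libraries, which stayed close together with an SD of 33.6, and the log2 fold change was 2.93 ± 0.14 (SE), or 7.62-fold (DESeq2 adjusted p = 2.78e-94). Sars (chromosome 3: 108424865-108445209, minus strand), which charges serine onto its own tRNAs and onto the selenocysteine tRNA, had 843, 829, 906 and 766 counts in wildtype and 5530, 4517, 6080 and 4898 in knockout. The lowest knockout library was well above the highest wildtype library, and the rise was 6.29-fold (log2 2.65 ± 0.12, adjusted p = 1.16e-103).

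Asparaginyl-tRNA synthetase (Nars) followed, with 1019, 1029, 1083 and 965 counts in wildtype and 4614, 3899, 5401 and 4376 in knockout. The groups did not overlap, and the rise was 4.47-fold (log2 2.16 ± 0.12, DESeq2 adjusted p = 3.27e-71). Eprs (chromosome 1: 185363044-185428360, plus strand) encodes a double enzyme that charges both glutamate and proline and sits in the multisynthetase complex. It was the most abundantly counted of the 36 genes, with 2743, 2557, 2753 and 2712 counts in wildtype and 11100, 10820, 13390 and 11620 in knockout. The wildtype libraries agreed closely, with an SD of 91.3 on a mean of 2691, and the rise was 4.36-fold (log2 2.12 ± 0.10, adjusted p = 4.67e-107).

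Cysteinyl-tRNA synthetase (Cars) had 209, 226, 312 and 349 counts in wildtype and 978, 1043, 912 and 1013 in knockout, a rise of 3.60-fold. Alanyl-tRNA synthetase (Aars) had 1107, 1287, 1431 and 1218 counts against 4249, 3492, 5762 and 3359, a rise of 3.34-fold. In both genes the groups were separate, but the spread lay in different places: among wildtype libraries for Cars (SD 67.5) and among knockout libraries for Aars (SD 1100), where replicate 3 was highest. The Aars counts carry a limit, because 1326 bases of its transcripts are shared with Exosc6, an overlapping gene on the same strand that was listed at 0 in every library, so reads of the 2 genes cannot be told apart.

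Below Aars, the 7 genes from Yars to Mars1 also rose by at least 2-fold. Tyrosyl-tRNA synthetase (Yars) rose from 415 ± 27.8 to 1378 ± 170 counts (mean ± SD, n = 4 per group), with a log2 fold change of 1.73 ± 0.12. Leucyl-tRNA synthetase (Lars) rose from 1032 ± 45.9 to 3363 ± 262 counts, with a log2 fold change of 1.70 ± 0.09, and isoleucyl-tRNA synthetase (Iars) from 951 ± 14.6 to 2909 ± 171, with 1.61 ± 0.08. These 3 folds lay within their errors of one another, and no library of one group reached the other. Transcripts of Iars share 1656 bases at 96.0% identity with Gm4849, a processed pseudogene with a mean of 0.0 counts.

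Valyl-tRNA synthetase (Vars), which binds elongation factor 1, had the lowest wildtype level of the cytosolic set per length and rose from 362 ± 56.2 to 1069 ± 210 counts (log2 1.56 ± 0.18). Threonyl-tRNA synthetase (Tars) rose from 453 ± 45.9 to 1300 ± 129 counts (log2 1.52 ± 0.12), and arginyl-tRNA synthetase (Rars) from 500 ± 42.6 to 1173 ± 38.9 (log2 1.23 ± 0.10). Methionyl-tRNA synthetase (Mars1), which serves both initiator and elongator tRNA, rose from 678 ± 42.7 to 1392 ± 113 counts (log2 1.04 ± 0.10). The groups did not overlap in any of these genes, and the DESeq2 adjusted p ran from 2.66e-17 (Vars) to 1.20e-33 (Rars).

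Tryptophanyl-tRNA synthetase (Wars), a gene also induced by interferon, had 564, 735, 608 and 681 counts in wildtype and 1146, 1142, 1563 and 1266 in knockout. Histidyl-tRNA synthetase (Hars) had 475, 435, 463 and 531 against 869, 949, 1036 and 842. Both were close to 2-fold up, at 1.98-fold and 1.94-fold, with separate groups (DESeq2 adjusted p = 1.28e-10 and 9.76e-15).

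Among the 17 that rose, aspartyl-tRNA synthetase (Dars) moved least: 1002, 912, 1017 and 939 counts in wildtype and 1442, 1171, 1205 and 1230 in knockout. The groups did not overlap, but the rise was only 1.30-fold (log2 0.38 ± 0.10, adjusted p = 0.00118, DESeq2), and with total counts as the scale it was 0.09 with an adjusted p of 0.565. Kars (chromosome 8: 111993443-112011323, minus strand) had 1401, 1322, 1318 and 1296 counts in wildtype and 1530, 1400, 1725 and 1289 in knockout, and the groups overlapped. Its log2 fold change was 0.16 ± 0.11 (adjusted p = 0.304), with a 95% interval of -0.07 to 0.38, whereas Gars, the other gene that serves both compartments, had an interval of 2.65 to 3.20.

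Glutaminyl-tRNA synthetase (Qars, chromosome 9: 108507706-108515941, plus strand) showed the smallest fitted change of the set. Its counts were 699, 747, 743 and 691 in wildtype and 722, 642, 908 and 616 in knockout, so the knockout libraries spread to both sides of the wildtype ones. The group means were 720 and 722 counts, and the 95% interval of the log2 fold change ran from -0.27 to 0.28 (adjusted p = 0.993). The direction of Qars flipped under other scalings: it was called lower with total counts (log2 -0.31, adjusted p = 0.0223) and higher when mitochondrial rRNA was left out of the total (log2 0.42, adjusted p = 0.000877).

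Phenylalanyl-tRNA synthetase of the cytosol is built from 2 kinds of subunit, the alpha subunit of Farsa and the beta subunit of Farsb. Farsa had 311, 280, 287 and 274 counts in wildtype and 363, 335, 304 and 292 in knockout, and its groups overlapped (log2 0.17 ± 0.13, DESeq2 adjusted p = 0.321, 95% interval -0.08 to 0.41). Farsb had 589, 590, 564 and 587 counts against 920, 822, 1204 and 864, with no overlap (log2 0.71 ± 0.14, adjusted p = 3.28e-06). The ratio of Farsb to Farsa within a library was 1.89, 2.11, 1.96 and 2.15 in wildtype and 2.53, 2.46, 3.96 and 2.96 in knockout. All knockout ratios lay above all wildtype ratios, a difference of 0.53 (log2), for which the two-sided exact permutation test gave p = 0.0286, the smallest that 4 against 4 allows. This ratio was chosen after the values of both genes had been seen.

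**Figure D2:**
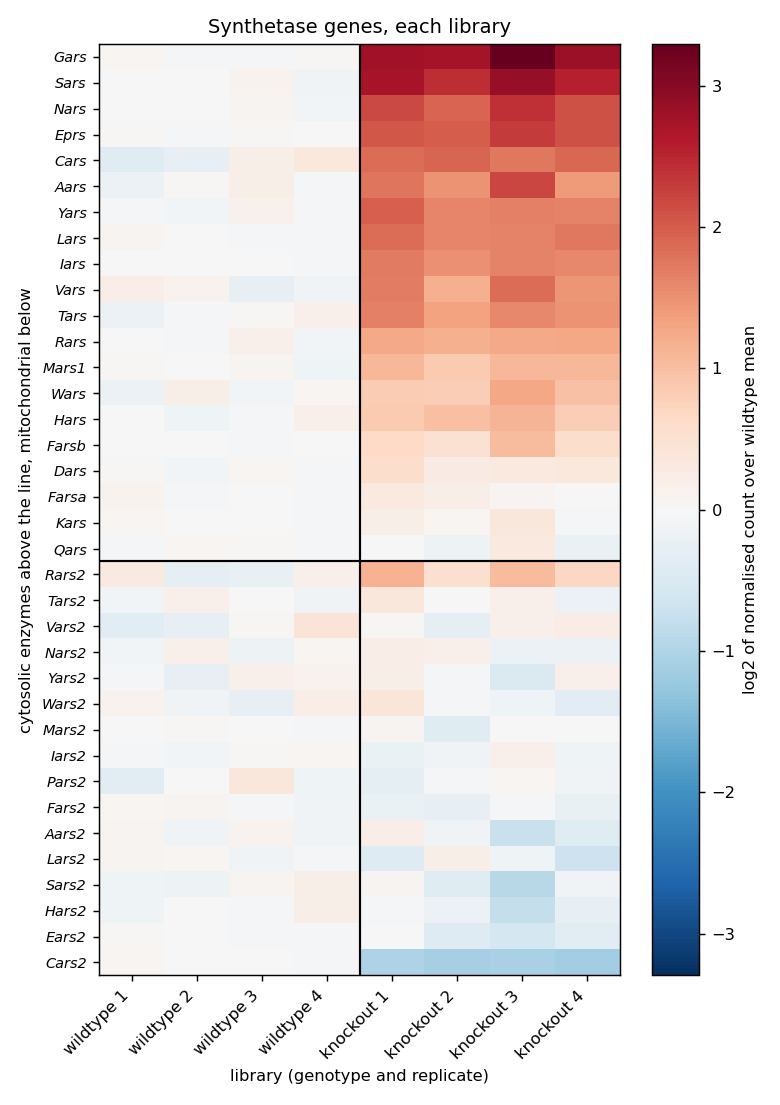
Log2 of the normalised count over the wildtype mean for each gene (rows) in each library (columns),, with the 20 cytosolic genes above the line and the 16 mitochondrial genes below. The upper right block, cytosolic genes in knockout hearts, is red down to Dars, Cars2 is the only row that is blue in all 4 knockout libraries at about -1, and Rars2 is red in all 4.

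The knockout libraries differed among themselves in the same genes. Knockout replicate 3 held the highest of the 4 values in 12 of the 20 cytosolic genes and the lowest in 6 of the 16 mitochondrial genes. Replicate 1 was highest in 11 mitochondrial genes, and replicate 2 was lowest in 14 cytosolic genes. The median log2 ratio to the wildtype mean over the cytosolic genes was 1.67, 1.25, 1.61 and 1.43 in knockout replicates 1 to 4, and over the mitochondrial genes 0.07, -0.12, -0.14 and -0.18. Without knockout replicate 3, which stood apart on the second component, 17 cytosolic genes were still called higher, and 1 mitochondrial gene was called higher and 2 lower (Fars2 in addition to Cars2).

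In the mitochondrial set, the gene that fell was Cars2 (chromosome 8: 11513977-11550783, minus strand), which charges cysteine in mitochondria and is also known to make cysteine persulfides. It had 567, 541, 553 and 522 counts in wildtype and 270, 258, 262 and 245 in knockout. Both groups were tight and far apart, with SDs of 18.7 and 10.3, and the log2 fold change was -1.08 ± 0.10 (adjusted p = 1.91e-23, DESeq2), with a 95% interval of -1.28 to -0.87. Its cytosolic counterpart Cars went the other way, so that wildtype hearts held fewer Cars than Cars2 counts and knockout hearts more. A transcript of Naxd, with a mean of 429 counts, shares 217 bases with Cars2 on the other strand.

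The mitochondrial gene that rose was Rars2 (chromosome 4: 34614957-34660167, plus strand), the arginine enzyme. Its normalised counts were 259, 168, 176 and 238 in wildtype and 466, 301, 431 and 335 in knockout, separate but wide in both groups (log2 0.87 ± 0.20, adjusted p = 0.000146, DESeq2). The fit corrects for transcript length, and the effective length assigned to Rars2 was 987 to 1418 bases in wildtype and 842 to 1169 in knockout. Without that term the log2 fold change was 0.60 (adjusted p = 2.59e-05). The expected counts before any scaling were 203 to 293 against 288 to 332.

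The other 14 mitochondrial genes had log2 fold changes between -0.31 and 0.09 with overlapping groups. The lowest values were those of Ears2, which charges glutamate, Hars2, which charges histidine, and Sars2, which charges serine. Ears2 had 232, 228, 219 and 220 counts in wildtype and 226, 169, 150 and 177 in knockout (log2 -0.31 ± 0.16, DESeq2 adjusted p = 0.113). Hars2 had 279, 314, 296 and 352 against 295, 271, 181 and 256 (log2 -0.31 ± 0.17, adjusted p = 0.165), and it lies head to head with Hars, whose counts about doubled on the opposite strand. Sars2 had 133, 132, 159 and 168 against 158, 111, 79.0 and 136 (log2 -0.29 ± 0.23, adjusted p = 0.357). In all 3 genes the lowest knockout value came from replicate 3, while replicate 1 lay within the wildtype range. Without the length term Ears2 (log2 -0.46, adjusted p = 0.0123) and Hars2 (log2 -0.48, adjusted p = 0.0125) were called lower, and Ears2 was also called lower without knockout replicate 1 (log2 -0.44, adjusted p = 0.0134).

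Leucine, alanine and phenylalanine enzymes of mitochondria came next. Lars2 had a log2 fold change of -0.23 ± 0.19, Aars2, which is linked to infantile cardiomyopathy, -0.22 ± 0.20, and Fars2, a single-chain enzyme unlike its cytosolic counterpart, -0.19 ± 0.11. Counts of Aars2 were 491, 426, 503 and 425 in wildtype and 537, 429, 276 and 347 in knockout, so the knockout libraries covered a wider range on both sides. The 95% intervals were -0.60 to 0.15 for Lars2, -0.61 to 0.17 for Aars2 and -0.40 to 0.02 for Fars2.

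For 8 mitochondrial genes the fitted change was at most 0.10 in size. Iars2, the isoleucine enzyme and the most abundant of the mitochondrial set, had 1979, 1913, 2089 and 2094 counts in wildtype and 1721, 1847, 2277 and 1817 in knockout, with a 95% interval of -0.30 to 0.14. Its transcripts share 2034 bases with Rab3gap2, a neighbour on the other strand with a mean of 1130 counts. Mars2, the methionine enzyme, had 425, 437, 426 and 419 against 455, 326, 434 and 432, with replicate 2 the lowest of the knockout libraries and the other 3 close to wildtype. Tars2 (log2 0.09 ± 0.14), Vars2 (0.06 ± 0.20), Nars2 (0.01 ± 0.16), Yars2 (-0.01 ± 0.18), Wars2 (-0.02 ± 0.21) and Pars2 (-0.10 ± 0.23) charge threonine, valine, asparagine, tyrosine, tryptophan and proline. Pars2 had the fewest counts of the 36 genes, 75.1 ± 16.6 in wildtype and 70.3 ± 7.16 in knockout (mean ± SD), and its 95% interval ran from -0.54 to 0.35.

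A call in one gene and none in its partner does not show that the 2 differ, so the ratio of the cytosolic to the mitochondrial gene for the same amino acid was compared within each library. This ratio does not depend on how libraries are scaled. There were 17 such pairs, since Eprs pairs with both Ears2 and Pars2, and Farsa and Farsb both pair with Fars2, while Dars, Gars, Kars and Qars had no partner among the 36. The log2 ratio was higher in knockout in all 17 pairs, by 0.36 to 2.97 with a median of 1.69. In 16 pairs the 4 knockout libraries all lay above the 4 wildtype libraries. In a two-sided exact permutation test over 70 assignments this gives p = 0.0286, the smallest possible, and 0.0304 after Benjamini-Hochberg adjustment over the 17 pairs. Eprs and Fars2 each enter 2 pairs, so the pairs are not independent. Among single genes tested the groups were separate for 33.0%, and no such share was computed for other gene pairs.

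The widest shifts were those of Sars/Sars2, from 2.50 ± 0.22 to 5.46 ± 0.53 (log2 ratio of normalised counts, mean ± SD, n = 4), and Cars/Cars2, from -1.02 ± 0.39 to 1.93 ± 0.12. Cars/Cars2 thus changed sign, and so did the means of Iars/Iars2 (-1.08 to 0.61), Vars/Vars2 (-0.20 to 1.28), Tars/Tars2 (-0.50 to 0.93) and Farsb/Fars2 (-0.36 to 0.53). Normalised counts are not scaled for length between genes, so the sign of a ratio also depends on transcript length. Scaled by length (TPM), Yars too lay below Yars2 in wildtype (5.07 against 6.12) and above it in knockout (15.3 against 5.57). Rars/Rars2 was the pair that did not differ by the test, at 1.27 ± 0.37 in wildtype and 1.63 ± 0.28 in knockout (exact permutation p = 0.171). Without the length term its difference was 0.61 in place of 0.37 and it passed the test (exact permutation p = 0.0286). Farsa/Fars2 had the smallest difference, from -1.37 ± 0.09 to -1.02 ± 0.20, and neither of its genes was called on its own. Without any 1 wildtype library, Farsa/Fars2 and Wars/Wars2 no longer passed the exact permutation test (adjusted p = 0.0607). Both pairs stay fully separate there, and the test has fewer assignments and unequal groups.

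**Figure D3:**
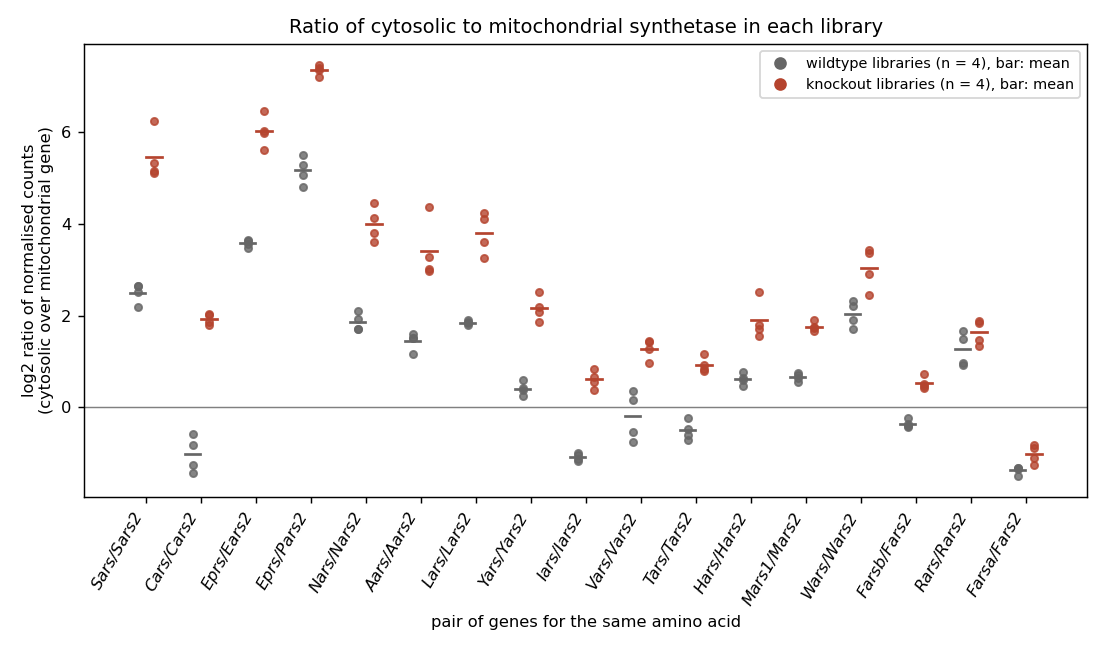
Log2 ratio of normalised counts of the cytosolic over the mitochondrial gene for each of 17 pairs, ordered by the difference between groups, with 1 point per library (wildtype grey, knockout red, n = 4 each) and a bar at the mean. Knockout points lie above all wildtype points in every pair but Rars/Rars2.

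Levels were compared between genes per transcript length, in TPM, transcripts scaled by length to the same total in every library. In wildtype hearts Kars was highest at 19.9 ± 1.0 TPM (mean ± SD, n = 4), followed by Eprs at 16.2 ± 0.61. Sars (14.0 ± 1.14), Iars2 (13.8 ± 0.48) and Dars (13.7 ± 0.85) came next and were within their spread of each other, as were Qars (11.9 ± 0.61), Gars (11.7 ± 0.46) and Nars (11.5 ± 0.69). At the bottom of the order stood the mitochondrial Wars2 (1.32 ± 0.18), Pars2 (1.08 ± 0.24) and Mars2 (1.06 ± 0.03). The lowest cytosolic genes, Vars (3.42 ± 0.57) and Cars (3.99 ± 0.92), lay among the mitochondrial ones.

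In knockout hearts the order changed at the top. Gars moved from place 7 to place 1 of 36 with 80.5 ± 11.8 TPM, level with Sars at 80.0 ± 6.12, and Eprs (64.4 ± 5.12) and Nars (46.4 ± 4.23) followed. Kars moved from place 1 to 7 with 20.1 ± 1.14 TPM and Qars from 6 to 19. Cars2 moved from place 11 to 26 and Iars2 from 4 to 18, while Wars2, Pars2 and Mars2 stayed in the last 3 places. TPM values are shares of a library in which mitochondrial rRNA took a larger part in knockout, so these are places within a genotype and not tests of change.

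Summed over the set, the cytosolic genes held 2.25, 2.26, 2.29 and 2.16 times the TPM of the mitochondrial genes in wildtype and 6.69, 6.84, 8.28 and 7.29 times in knockout. As a share of the TPM of all 36 genes, the cytosolic genes rose from 69.1 ± 0.574% to 87.8 ± 0.995% (mean ± SD, n = 4). Gars and Kars, which supply both compartments, are counted as cytosolic here, and the mitochondrial genes include no glycine, lysine or aspartate enzyme. No library of one group came near the other, and this share does not depend on the rRNA content.

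**Figure D4:**
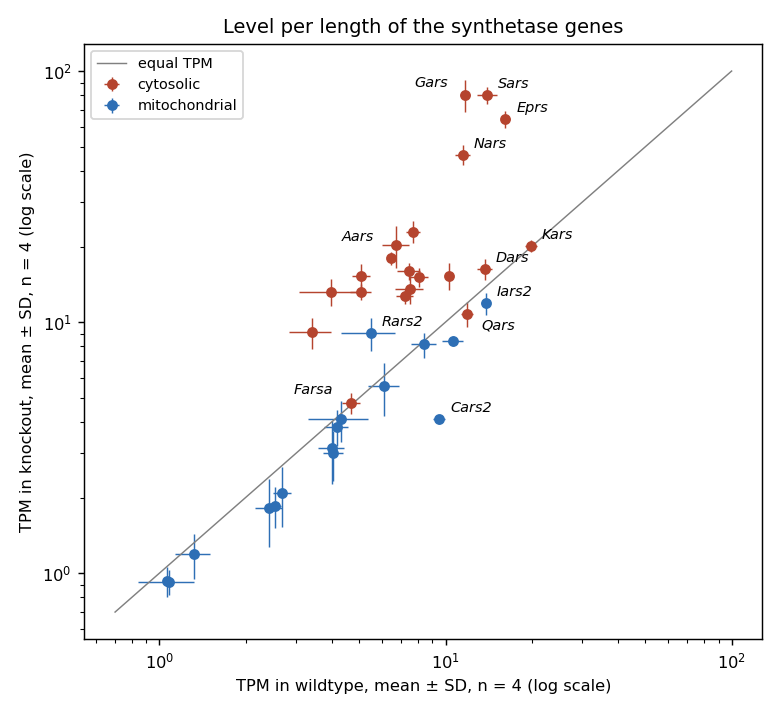
Mean TPM of each synthetase gene in wildtype (horizontal) and knockout (vertical) hearts on log scales, with SD bars (n = 4) and a line at equal TPM. Gars, Sars, Eprs and Nars lie far above the line, Kars lies on it with the highest wildtype level, and Cars2 lies furthest below it.

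Within the cytosolic set, 8 enzymes belong to the multisynthetase complex (Dars, Eprs, Iars, Kars, Lars, Mars1, Qars and Rars). Of these 6 rose, with a median log2 fold change of 1.14, and of the 12 outside the complex 11 rose, with a median of 1.65. Over all genes tested 18.2% were higher, the background for these counts and for those by class. Inside the complex the log2 fold changes ran from 2.12 (Eprs) to 0.00 (Qars). Synthetases fall into 2 structural classes with unrelated catalytic folds: 8 of 9 class I genes rose with a median of 1.56, and 8 of 10 class II genes with a median of 1.24, Eprs being counted in neither because it joins both. These groupings were read as counts and medians, and no difference between them was tested.

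Genes that work with the synthetases were read from a list of 16. Of 8 cytosolic partners, 5 rose and 1 fell, beside the 18.2% higher and 15.5% lower over all genes tested. The split was 2 higher and 2 lower with total counts, and 7 higher and 0 lower without mitochondrial rRNA in the total, where the calls over all genes moved the same way, as given above. Xpot, the exportin that carries tRNA out of the nucleus, rose from 735 ± 37.9 to 2457 ± 275 counts (mean ± SD, n = 4 per group, log2 1.74 ± 0.11, DESeq2 adjusted p = 1.67e-53). The 3 scaffold proteins of the multisynthetase complex had smaller fold changes than 5 of its 8 enzymes: Aimp1 rose by 0.56 ± 0.13, Aimp2 by 0.52 ± 0.12 and Eef1e1 by 0.85 ± 0.27 on the log2 scale, with overlapping groups for Eef1e1. Dtd1, which removes D-amino acids from tRNA, rose by 0.51 ± 0.17, and Aarsd1, an editing factor for mischarged alanine tRNA, fell (log2 -0.45 ± 0.14, adjusted p = 0.00717). Pstk and Sepsecs, which make selenocysteine on its tRNA, had log2 fold changes of -0.09 and 0.25 and did not pass the test. Pstk was called lower with total counts (-0.39), and both were called higher without mitochondrial rRNA in the total (0.33 and 0.67).

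Of 8 mitochondrial partners 1 rose and 1 fell, which is near the share over all genes tested. The split was 1 higher and 4 lower with total counts, and 5 higher and 0 lower without mitochondrial rRNA in the total, again moving with the calls over all genes. Trnt1, which adds the CCA end that every tRNA needs for charging, in mitochondria as in the nucleus, rose from 354 ± 29.3 to 867 ± 214 counts (log2 1.29 ± 0.18, DESeq2 adjusted p = 9.93e-12). Mto1, a partner of Gtpbp3 in modifying the wobble uridine of mitochondrial tRNAs, fell (log2 -0.34 ± 0.11, adjusted p = 0.0119). The subunits of the glutamine amidotransferase, Qrsl1, Gatb and Gatc, the formyltransferase Mtfmt and the modifying enzymes Trmu and Gtpbp3 did not pass the test, with log2 fold changes from -0.34 to 0.41. Of these, Qrsl1, Gatb and Gtpbp3 were called lower with total counts, and Gatb, Gatc, Mtfmt and Trmu higher without mitochondrial rRNA in the total. Xpot, Aimp1 and Trnt1 were called higher under both other scalings as well, but Aimp2 (0.22), Eef1e1 (0.56) and Dtd1 (0.21) did not pass the test with total counts, and Aarsd1 (-0.02) and Mto1 (0.09) did not pass it without mitochondrial rRNA in the total, where the sign of Mto1 flipped.

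Promoter windows were read for the genes of both sets because the cytosolic genes moved together. Windows of 300 bases, from 250 before to 50 after the start, were read for 13 cytosolic and 14 mitochondrial genes. Their positions came from RefSeq (build GRCm38.p6). The remaining genes were not searched, which does not mean that RefSeq holds no window for them. The letters TGATGNAA, the core of the C/EBP-ATF element that ATF4 is known to bind, were searched on both strands. They occurred in the windows of 5 of the 13 cytosolic genes (Aars, Gars, Iars, Tars and Yars) and of 0 of the 14 mitochondrial genes. Over all 27025 genes with a window the share was 4.51%. The match nearest the start of each gene is printed with 11 bases on either side, read on the gene's own strand 5′ to 3′ with the match in capitals, to show the forms they take.
Aars, chr8:111033840-111033869, plus strand: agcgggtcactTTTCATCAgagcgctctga
Gars, chr6:55037960-55037989, plus strand: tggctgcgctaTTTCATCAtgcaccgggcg
Iars, chr13:49682126-49682155, plus strand: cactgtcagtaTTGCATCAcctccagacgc
Tars, chr15:11399655-11399684, minus strand: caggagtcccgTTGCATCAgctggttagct
Yars, chr4:129189895-129189924, plus strand: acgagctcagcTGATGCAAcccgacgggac

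The match lay on the gene's own strand in Yars and on the other strand in the other 4 genes. The matches in Iars, Tars and Yars carry a C at the variable place when read as TGATGNAA, and those of Gars and Aars carry an A. Their first bases lay at 10 in Aars, -30 in Gars, 8 in Iars, -15 in Tars and 4 in Yars, counted from 1 at the start. For Gars, the gene with the largest rise, the 250 bases before the start show the match close to its 3′ end.
Gars, chr6:55037751-55038000, plus strand: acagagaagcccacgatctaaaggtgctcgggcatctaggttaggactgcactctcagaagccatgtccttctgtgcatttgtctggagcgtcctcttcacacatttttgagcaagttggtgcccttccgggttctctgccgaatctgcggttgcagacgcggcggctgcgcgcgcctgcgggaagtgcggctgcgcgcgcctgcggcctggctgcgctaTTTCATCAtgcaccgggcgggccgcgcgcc

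The 5 cytosolic genes with a match rose by 1.52 to 2.93, with a median log2 fold change of 1.73, and the 8 without one had a median of 0.55. The 7 cytosolic genes whose windows were not read, Cars, Hars, Lars, Nars, Rars, Vars and Wars, rose by 0.96 to 2.16 with a median of 1.56, so the 2 medians cover only part of the set. The 8 genes without a match included Sars (2.65) and Eprs (2.12) as well as Qars, Kars and Farsa, so large rises were also measured where these letters are not in the window. The core of the element of nuclear respiratory factor 1 is the letters GCGC on both sides of 2 free bases. It occurred in the windows of Farsb, Kars and Tars and of Iars2 and Mars2, beside 7.0% of all genes with a window. Cytosolic genes with it had a median of 0.71, and the 10 without it 1.67. The E-box CACGTG occurred in Aars, Farsb, Iars, Tars and Ears2, beside 8.09% of all genes with a window. Cytosolic genes with it had a median of 1.57, and the 9 without it 1.04. Aars, Iars and Tars carry both the C/EBP-ATF letters and the E-box. No difference between these medians was tested. None of the matches nearest the start overlapped one of another motif. A match describes the letters of the window only.

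**Figure D5:**
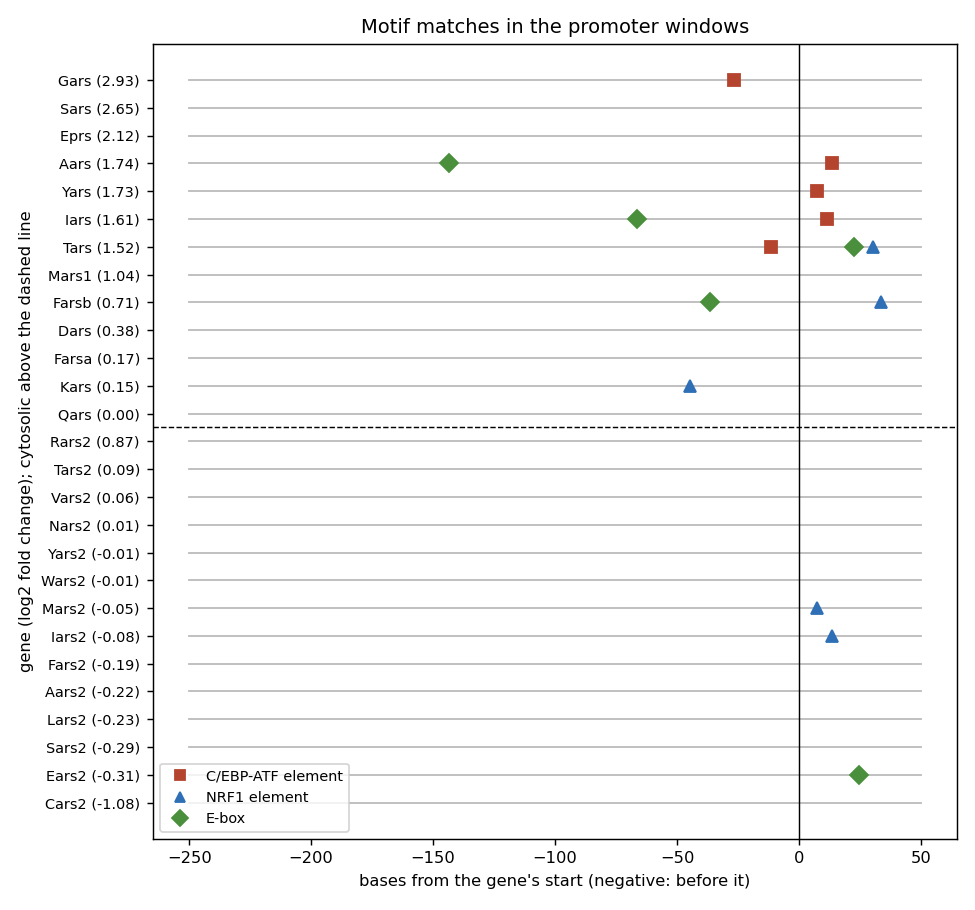
Position of the match nearest the start for each motif in the promoter windows of 13 cytosolic and 14 mitochondrial genes, in bases from the gene's start, with genes ordered by log2 fold change within each set (value in brackets). Red squares (C/EBP-ATF element) occur in 5 cytosolic rows and in no mitochondrial row, while blue triangles (NRF1 element) and green diamonds (E-box) occur in both sets.

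The groups of 4 libraries did not overlap for 17 of 20 cytosolic genes and 2 of 16 mitochondrial genes, against 33.0% of all genes tested. The 17 cytosolic genes were those called higher, and the 2 mitochondrial genes were Cars2 and Rars2.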

How the data were processed

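Total RNA of whole hearts was sequenced in 8 libraries with a stranded paired-end kit. The authors aligned reads with Bowtie2 inside RSEM 1.2.31 (mm10, with a GENCODE annotation to which mitochondrial sequences bearing 50 added adenines were joined), and deposited for each library the expected count, the TPM value (transcripts scaled by length to one library total) and the effective length of every gene. Symbols and positions came from GENCODE, which matched 50339 of 50563 Ensembl identifiers. Expected counts were rounded and fitted with DESeq2 1.42.0 (Wald test, median-of-ratios size factors, effective lengths as an offset), with Benjamini-Hochberg adjustment over all genes and a threshold of 0.05. The study names tximport and DESeq2 1.16.1 for its own fit and does not state these settings. A normalised count is a count divided by size factor and relative length. edgeR 4.0.16 was the alternative test. DESeq2 was kept as the first test because the study used it. Ratios within libraries were taken on log2(normalised count + 1) and tested by exact permutation over libraries. Both fits were tested on simulated data. Shared sequence was looked for with blastn 2.17.0.

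Groups and replicate numbers came from the labels, and each library is 1 animal. The age came from the study's methods. Values were printed for all 36 genes, for Lrpprc, for partner genes past the threshold with Pstk and Sepsecs, and as a range for the other partner genes. Sums were printed for 4 of the marker lists and, in knockout replicate 3 only, for the endothelial list. The members, lists and tests were chosen with earlier results of these data known. A deposited table of 8 normalised count columns and the authors' table of fold changes and p-values were not used. Promoter windows were read for 27 of the 36 genes, and 1 match per motif and window was described. A withheld item is not reported here. Alternatives covered scaling, the length offset, a filter on low counts, the replicate block, the pseudocount and leaving out each library.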

Additional observations from a re-analysis of the deposited data

Results flagged for a closer look

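Within the groups of 4 libraries, 4 values stood apart from the other 3 by Dixon's gap criterion, out of 72 groups tested (36 genes in 2 genotypes), where chance alone flags about 1 in 20, or 3.6. Farsb had 564.1 normalised counts in wildtype replicate 3, against 587.0 to 590.1 in the other wildtype libraries. Gars had 9036 counts in knockout replicate 3, against 6151 to 6544. Mars1 had 1223 counts in knockout replicate 2, against 1437 to 1454, and Yars had 1632 counts in knockout replicate 1, against 1273 to 1315. All 4 genes were called higher in knockout with each library left out in turn.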

How the results depend on the processing

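Of 285 values for the 19 called genes under 15 alternatives, 284 kept direction and call, the exception being Dars with total counts (0.09). Total counts gave 1 cytosolic and 9 mitochondrial genes lower and medians of 1.24 and -0.39. Totals without mitochondrial rRNA gave 7 mitochondrial genes higher and medians of 1.96 and 0.34. Without the length offset 3 mitochondrial genes were lower (Ears2 and Hars2 with Cars2), and all 17 pairs differed, with Rars/Rars2 at 0.61. Leaving out 1 library gave 1 to 2 mitochondrial genes lower (2 without knockout replicate 1, adding Ears2, and without knockout replicate 3, adding Fars2) and 14 to 16 pairs (14 without any 1 wildtype library, losing Farsa/Fars2 and Wars/Wars2). Same-numbered libraries did not deviate together (correlations of -0.082 to 0.093, every one below 0.1). With the replicate block 17 cytosolic genes were higher, with 5525 of all genes called, and sign flips within numbers gave 0 pairs, since they cannot pass with 4 numbers. Reversed log2 fold changes belonged to genes not called as reported. With total counts they were -0.13 (Farsa), -0.15 (Kars), -0.31 (Qars), -0.29 (Nars2), -0.21 (Tars2) and -0.24 (Vars2). Without mitochondrial rRNA in the total they were 0.21 (Aars2), 0.11 (Ears2), 0.23 (Fars2), 0.12 (Hars2), 0.34 (Iars2), 0.20 (Lars2), 0.37 (Mars2), 0.33 (Pars2), 0.15 (Sars2), 0.41 (Wars2) and 0.42 (Yars2). edgeR gave -0.02 for Qars and -0.01 for Nars2, the replicate block -0.012 for Qars, and no length offset 0.007 for Pars2 and 0.058 for Wars2. With 1 library left out, values ran from -0.13 to 0.073 (Qars), -0.10 to 0.047 (Mars2), -0.066 to 0.073 (Nars2), -0.20 to 0.056 (Pars2), -0.007 to 0.18 (Tars2), -0.044 to 0.23 (Vars2), -0.18 to 0.09 (Wars2) and -0.093 to 0.11 (Yars2). Counts were lowest for Pars2, Sars2 and Wars2, with wildtype means of 75.1, 148 and 157 and SEs of 0.23, 0.23 and 0.21 on the log2 scale.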

Other observations

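The cytosolic genes were also split by whether mammals can make the amino acid, a grouping chosen after the values were seen. Of the 10 genes for dispensable amino acids 9 rose, with a median log2 fold change of 1.79, led by glycine (Gars, 2.93), serine (Sars, 2.65), asparagine (Nars, 2.16) and glutamate with proline (Eprs, 2.12), and Qars did not pass the test. Of the 10 genes for indispensable amino acids 8 rose, with a median of 1.01, and none exceeded the 1.70 of Lars. Over all genes tested, 18.2% were higher. The 2 sets overlapped, since Dars (0.38) and Qars (0.00) lay at the lower end of the first, and no difference between them was tested.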
